A study of Mus musculus with 1989 samples.

Results

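Total thymocytes, taken from the thymus of C57BL/6 mice without sorting, were profiled one cell at a time by scATAC-seq, an assay in which a transposase cuts and tags DNA where chromatin is open. The total thymocytes described here were the 1075 cells whose label carries a plate number and whose counts in peaks sum to 1000 or more, out of 1084 cells so labelled and 1988 cells in the whole table. The labels give male sex and an age of 7 weeks for all cells, and no genetic change, treatment or allele is named for any group. The comparison groups were thymocytes sorted as double negative (DN, 175 cells), double positive (DP, 116 cells), CD4 (96 cells) and CD8 (91 cells) that reached the same total, and CD4 and CD8 sorted cells together are called single positive (SP, 187 cells). The labels tie no cell to an animal. A group is therefore 1 sample without replicates, groups were not tested against each other, and all intervals are exact 95% intervals that cover counting error only. The 9 cells left out had totals of at most 953, and the lowest total taken was 1029.

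The thymus turns blood-borne progenitors into T cells. Progenitors begin as DN cells, which lack both CD4 and CD8, proliferate under Notch and pre-T-cell-receptor signals, and become DP cells, which carry both coreceptors and recombine the T cell receptor alpha locus with the Rag1 and Rag2 recombinase. DP cells that receive a survival signal through the receptor are positively selected, shut down the recombinase and mature into CD4 or CD8 SP cells, which leave the thymus. DP cells are known to be the most abundant thymocytes. Enhancers, open stretches away from gene starts, differ more between cell types than promoters do.

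For the stage genes on which the results turn, 300 bases from the center of the distal peak open in most total thymocytes are shown, with a second such peak for Cd8a and Tcf7, together with 300 bases before the start of Rag2, Cd8b1 and Ccr7. The bases are from RefSeq's mouse assembly GRCm38.p6, 5′ to 3′, on the plus strand except for Ccr7, and none of the windows overlapped an exon. Capitals mark every match, on either strand, to one of a small number of motifs. The E-boxes bound by E proteins were searched for with the letters CAGCTG and with the letters CAGGTG. The motif of Runx factors, which act at all stages of T cell development, was searched for with the letters TGTGGT. The motif of Ets factors, which are common at open chromatin of lymphocytes, was searched for with the letters AGGAAG. For nuclear receptors, the letters searched for were AGGTCA. For Gata factors, among them the T cell factor GATA3, the letters searched for were AGATAA. For Tcf and Lef factors, such as TCF1, the letters searched for were CTTTGAA. A match describes the letters only.
Rag1 97885 bp downstream of the start, intergenic, chr2:101551467-101551766: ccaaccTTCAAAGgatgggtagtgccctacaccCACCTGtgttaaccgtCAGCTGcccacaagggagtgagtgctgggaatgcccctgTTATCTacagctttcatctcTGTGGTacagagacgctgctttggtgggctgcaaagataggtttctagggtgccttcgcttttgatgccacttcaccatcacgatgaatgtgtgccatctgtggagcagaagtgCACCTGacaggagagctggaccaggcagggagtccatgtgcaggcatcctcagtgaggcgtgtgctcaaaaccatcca
Cd8a peak at -3843 bp from the start, intergenic, chr6:71369435-71369734: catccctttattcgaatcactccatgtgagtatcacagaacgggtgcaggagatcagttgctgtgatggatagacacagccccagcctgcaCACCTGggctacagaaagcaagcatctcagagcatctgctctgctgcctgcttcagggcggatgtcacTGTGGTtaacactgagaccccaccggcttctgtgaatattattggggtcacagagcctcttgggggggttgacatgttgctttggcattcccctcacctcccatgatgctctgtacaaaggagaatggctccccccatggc
Cd8a peak at -32046 bp from the start, intergenic, chr6:71341232-71341531: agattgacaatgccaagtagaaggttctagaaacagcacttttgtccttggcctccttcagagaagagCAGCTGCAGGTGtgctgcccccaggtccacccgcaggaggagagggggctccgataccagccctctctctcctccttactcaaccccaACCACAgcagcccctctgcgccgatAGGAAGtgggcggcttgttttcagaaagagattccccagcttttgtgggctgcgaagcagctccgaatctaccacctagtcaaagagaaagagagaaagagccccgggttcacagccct
Cd4 peak at -12364 bp from the start, intergenic, chr6:124900436-124900735: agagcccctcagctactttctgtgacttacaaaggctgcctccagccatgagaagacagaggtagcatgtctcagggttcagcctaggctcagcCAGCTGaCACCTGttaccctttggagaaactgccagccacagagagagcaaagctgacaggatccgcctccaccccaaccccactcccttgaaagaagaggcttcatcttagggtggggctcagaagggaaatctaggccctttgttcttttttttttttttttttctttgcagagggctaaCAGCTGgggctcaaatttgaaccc
Tcf7 peak 7432 bp downstream of the start, intronic, chr11:52275433-52275732: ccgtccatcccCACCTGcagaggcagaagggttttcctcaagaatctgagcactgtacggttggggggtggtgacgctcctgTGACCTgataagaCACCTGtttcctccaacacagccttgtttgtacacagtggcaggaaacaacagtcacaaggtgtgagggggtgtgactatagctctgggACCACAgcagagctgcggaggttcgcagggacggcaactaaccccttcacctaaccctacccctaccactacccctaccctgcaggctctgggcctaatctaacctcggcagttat
Tcf7 peak at -31221 bp from the start, intergenic, chr11:52314086-52314385: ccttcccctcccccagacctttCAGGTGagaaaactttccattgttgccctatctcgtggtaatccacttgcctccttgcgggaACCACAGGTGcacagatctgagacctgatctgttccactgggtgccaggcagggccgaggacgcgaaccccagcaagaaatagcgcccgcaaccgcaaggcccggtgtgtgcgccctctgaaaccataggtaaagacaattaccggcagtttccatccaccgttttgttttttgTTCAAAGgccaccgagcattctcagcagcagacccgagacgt
Il2ra peak at -5516 bp from the start, intergenic, chr2:11637142-11637441: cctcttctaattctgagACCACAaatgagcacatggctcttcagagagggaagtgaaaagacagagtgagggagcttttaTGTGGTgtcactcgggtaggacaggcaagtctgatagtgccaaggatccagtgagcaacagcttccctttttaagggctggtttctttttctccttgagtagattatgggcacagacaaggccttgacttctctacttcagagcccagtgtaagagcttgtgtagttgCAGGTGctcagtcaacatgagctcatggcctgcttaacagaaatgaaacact
Rag2 before the start, chr2:101624418-101624717: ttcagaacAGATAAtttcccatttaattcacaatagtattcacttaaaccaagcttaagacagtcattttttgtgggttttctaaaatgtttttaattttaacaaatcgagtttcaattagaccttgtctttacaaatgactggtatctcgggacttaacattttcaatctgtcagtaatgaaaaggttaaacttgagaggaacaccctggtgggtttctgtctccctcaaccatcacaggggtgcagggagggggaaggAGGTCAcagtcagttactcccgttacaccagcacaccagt
Cd8b1 before the start, chr6:71322488-71322787: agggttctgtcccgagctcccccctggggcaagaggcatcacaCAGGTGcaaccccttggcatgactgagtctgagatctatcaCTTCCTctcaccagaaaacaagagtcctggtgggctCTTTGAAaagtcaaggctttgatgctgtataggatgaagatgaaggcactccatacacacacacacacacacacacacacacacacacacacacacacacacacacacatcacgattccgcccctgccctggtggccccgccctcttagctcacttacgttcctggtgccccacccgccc
Ccr7 before the start, minus strand, chr11:99155078-99155377: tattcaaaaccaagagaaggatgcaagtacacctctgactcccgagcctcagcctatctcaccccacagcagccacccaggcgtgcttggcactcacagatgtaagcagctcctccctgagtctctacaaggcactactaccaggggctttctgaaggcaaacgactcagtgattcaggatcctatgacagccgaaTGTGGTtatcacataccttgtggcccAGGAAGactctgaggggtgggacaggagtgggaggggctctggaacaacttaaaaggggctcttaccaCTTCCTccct

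All 7 of these peak centers hold an E-box, CAGCTG or CAGGTG. In the Tcf7 window at -31221 bp, a match to TGTGGT read on the minus strand and a match to CAGGTG overlap. Among all 48909 distal peaks, those with a center farther than 2000 bp from a transcription start, 44.7% held an E-box in the central 300 bases. Of the 1000 distal peaks open in most total thymocytes, each open in 179 to 966 cells, 67.5% did. Windows 1000 bp away from the same centers held an E-box in 34.7%, near the 31.5% of distal peaks in general and the 31.7% of windows before the start of all 21911 genes. The 1000 distal peaks open in most DP sorted cells had 70.7%, those of DN sorted cells 57.7% and those of SP sorted cells 47.7%, so the E-box share of total thymocytes lay next to that of DP sorted cells. TGTGGT was found in 36% of the leading distal peaks of total thymocytes, against 42.4% in DP, 45.5% in DN and 44.6% in SP sorted cells and 33.3% in all distal peaks. AGGAAG was found in 50.1% of them and in 45.8% of all distal peaks, whereas AGGTCA was found in 14% against 17.1%, AGATAA in 10.9% against 14% and CTTTGAA in 7.8% against 8.44%. The E-boxes thus stood out most in the leading peaks of total thymocytes, and the other motifs were near their share in all distal peaks. The leading peaks of total thymocytes shared 642 of 1000 with those of DP, 517 with those of DN and 439 with those of SP sorted cells. Shares of windows with the other motifs before gene starts were 15.8% for TGTGGT, 33.3% for AGGAAG, 15.5% for AGGTCA, 11.5% for AGATAA and 5.78% for CTTTGAA.

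The table held raw counts for 138317 peaks of 4000 bp. Counts were limited to 1 per cell and peak and read over 62536 peaks that do not overlap one another, so that a peak is open or not open in a cell, 13627 of these lying within 2000 bp of a start. Total thymocytes had a median total of 5805 counts and 2980 open peaks (512 to 13158), whereas the medians of open peaks were 1932 in DN, 2002.5 in DP, 2769.5 in CD4 and 2620 in CD8 sorted cells. Signal at a gene is therefore given as open peaks per 10000 open peaks, and the shares of cells open at the 3 markers are given after each cell was thinned to 500 open peaks. All other shares of cells, at single peaks and promoters, are not thinned and move with the depth of the cells. A further difference touches every comparison with the sorts: promoter peaks made up a median of 62.5% of the open peaks of total thymocytes, against 50.8% in DN, 53.2% in DP, 48.7% in CD4 and 49.7% in CD8 sorted cells, and its part in the results was not tested. Total thymocytes were in 36 plates of 23 to 32 cells, and the plate medians of the promoter share, 56.3% to 65.1%, all lay above the medians of the sorts. Cells of 1 plate shared peaks open in only 2 to 20 total thymocytes 1.31 to 4.35 times as often as their totals would give. Plates that shared such peaks at 1.5 times or more were joined into 13 plate sets, a split made after seeing the data, and ranges over these sets are given beside the results. What a plate number stands for is not in the labels. Sorted cells fall into series of label numbers that differ in depth, with medians from 719 to 4625 open peaks, and the assignment of cells is given with single series and without the shallowest, which starts at 31000. No label number was shared between sorts. No 2 cells shared more than 29.3% of their open peaks, so no cell was present again in near-identical form.

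The markers were examined first. Cd8a encodes a chain of the CD8 coreceptor, and after thinning it was open in 18% of total thymocytes (15.7 to 20.4), beside 15.8% of DP, 7.69% of CD8, 1.71% of DN and 1.04% of CD4 sorted cells. The share was 13.5% to 23.3% over the plate sets, so all 13 sets lay above the DN and CD4 sorted values. Without thinning it was 69.9%, at a greater depth than the 44.8% of DP sorted cells. Rag1 encodes a subunit of the recombinase, and its promoter peak was open in 5.12% of total thymocytes (3.88 to 6.61), 5.26% of DP, 3.3% of CD8 and 0.571% of DN sorted cells after thinning, and in none of 96 CD4 sorted cells, with an upper limit of 3.77%. By the nearest start that peak belongs to B230118H07Rik, and the remaining peak nearest to Rag1 was open in 0.279% of total thymocytes. Il2ra encodes the alpha chain of the interleukin-2 receptor, a marker of DN cells, and it was open in 8.84% of total thymocytes (7.21 to 10.7), 5.71% of DN (2.77 to 10.3), 12.3% of DP (6.88 to 19.7), 9.38% of CD4 and 14.3% of CD8 sorted cells. By the peak at its own start alone Cd8a was open in 3.07% of total thymocytes (2.12 to 4.28) and in 0 of 114 DP sorted cells, with an upper limit of 3.18%. Under the rules used, all nearest peaks for Cd8a and the promoter peak for Rag1, the shares of total thymocytes were thus near those of DP sorted cells, whereas Il2ra did not separate the groups at this depth.

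Most peaks of the recombinase and coreceptor loci were higher in total thymocytes than in DN sorted cells, and against DP sorted cells they differed from peak to peak. At the recombinase locus, the intergenic peak 97885 bp downstream of the Rag1 start (chr2:101549617-101553616), whose central sequence is printed above, was open in 436 total thymocytes, or 40.6% (26.7% to 48.1% over the plate sets). Its signal was 1.36 open cells per 10000 open peaks in total thymocytes, 1.77 in DP, 0.841 in CD8, 0.519 in DN and 0.113 in CD4 sorted cells. The ratio of total thymocytes was 2.63 over DN (1.77 to 4.07), 0.772 over DP (0.56 to 1.09) and 2.98 over SP sorted cells (1.96 to 4.75). Total thymocytes were therefore above DN and SP sorted cells, while the interval against DP sorted cells held 1. The promoter of Rag2, the other subunit of the recombinase, gave 0.795 in total thymocytes, 0.948 in DP, 0.505 in CD8 and 0.12 in DN sorted cells, and no CD4 sorted cell was open there. The Rag1 promoter gave 1.03 in total thymocytes, 1.38 in DP, 0.505 in CD8, 0.319 in DN and 0 in CD4 sorted cells. All 3 peaks had the order DP, total, CD8, DN, CD4, but the intervals of total thymocytes against DP sorted cells held 1 at each. At other peaks of the locus total thymocytes were lower than DP sorted cells. The peak 40812 bp downstream of the Rag1 start gave 0.297 against 0.775, a ratio of 0.383 (0.23 to 0.674), and the peak 86152 bp downstream gave 0.297 against 0.603, a ratio of 0.493 (0.28 to 0.936). At 68018 bp and at -28913 bp the ratios were 0.642 (0.352 to 1.28) and 1.07 (0.47 to 2.98), and at the last of these total thymocytes, at 0.275, were below the 0.339 of DN sorted cells. The peak at -28913 bp lies at the start of another gene, Traf6. The peaks at 40812, 68018 and 86152 bp lie in introns of B230118H07Rik, and the peak at 97885 bp is nearest to the start of that gene. Which gene these peaks act on was not tested.

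At the CD8 locus total thymocytes were level with DP sorted cells at some peaks and above them at others. The Cd8a peak at -3843 bp was open in 43.5% of total thymocytes and gave a signal of 1.46, beside 1.34 in DP, 0.967 in CD8, 0.339 in DN and 0.264 in CD4 sorted cells. The Cd8a peak at -32046 bp gave 0.876 in total thymocytes, 0.905 in DP, 0.547 in CD8, 0.279 in DN and 0.0755 in CD4 sorted cells. The peak at -12538 bp gave 0.779 and 0.775 in total thymocytes and DP sorted cells and at most 0.21 elsewhere. At these 3 peaks the ratio over DP sorted cells was 1.1 (0.762 to 1.63), 0.968 (0.621 to 1.59) and 1 (0.623 to 1.72). The promoter of Cd8b1, which encodes the second chain of CD8, was open in 47.6% of total thymocytes and gave 1.6, beside 0.991 in DP sorted cells, a ratio of 1.62 (1.07 to 2.57). The peak at the Cd8a start, 1802 bp downstream, gave 0.56 against 0.215, a ratio of 2.6 (1.09 to 8.1). Both peaks with an interval above 1 lie at gene starts, where total thymocytes had more of their open peaks in general, and the part of this in the ratios was not tested.

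**Figure D1:**
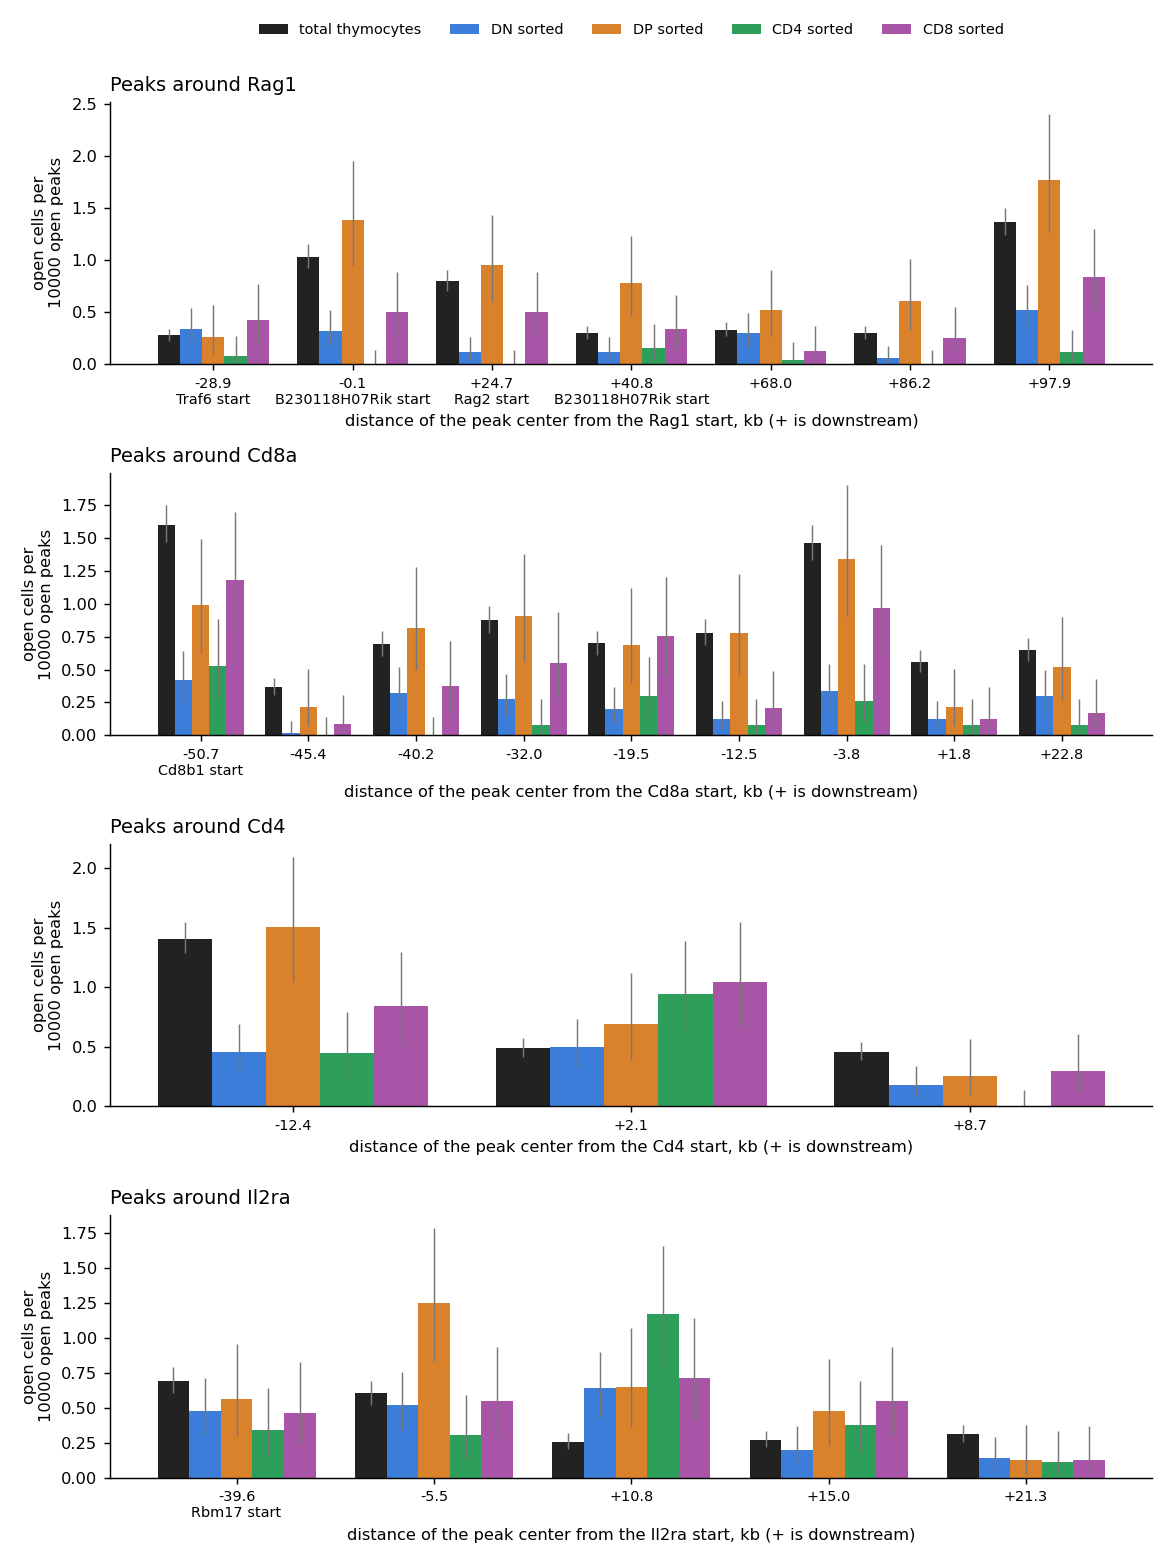
Open cells per 10000 open peaks at the peaks around Rag1, Cd8a, Cd4 and Il2ra, with the distance of the peak center from the start of the gene in kb on the horizontal axis. Bars are the values of total thymocytes and of each sort, and lines are exact 95% intervals. Total thymocytes stand above DN and CD4 sorted cells at the Cd8a peaks and at the Rag1 peaks other than the leftmost, at -28913 bp and the Traf6 start, where they are below DN. At all Rag1 peaks but the leftmost they stand below DP sorted cells in value. The interval of the ratio leaves out 1 only at 40812 and 86152 bp downstream. At the Il2ra peak 10.8 kb downstream they stand below all 4 sorts.

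Cd4 encodes the other coreceptor, and the peak at -12364 bp, between Cd4 and Lag3, gave 1.41 in total thymocytes, 1.51 in DP, 0.841 in CD8, 0.459 in DN and 0.453 in CD4 sorted cells. The intronic Cd4 peak 2070 bp downstream went the other way, at 0.488 in total thymocytes, 0.499 in DN, 0.689 in DP, 0.943 in CD4 and 1.05 in CD8 sorted cells, a ratio over SP sorted cells of 0.491 (0.355 to 0.689). The intronic peak 8669 bp downstream gave 0.46 in total thymocytes, 0.18 in DN, 0.258 in DP, 0 in CD4 and 0.294 in CD8 sorted cells. At -12364 bp total thymocytes were thus nearest to DP, at 2070 bp to DN and at 8669 bp they were above all 4 sorts in value.

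Tcf7 encodes TCF1, a factor of T lineage identity that all thymocyte stages use. Its intronic peak 7432 bp downstream was open in 52.9% of total thymocytes and gave 1.78, beside 1.64 in DP, 1.01 in CD8, 0.717 in CD4 and 0.679 in DN sorted cells. Its peak at -31221 bp was open in 48.7% and gave 1.64, beside 1.25 in DP, 1.47 in CD4, 1.18 in CD8 and 0.978 in DN sorted cells. The first peak set total thymocytes and DP sorted cells apart from the other sorts, and at the other the interval against SP sorted cells held 1 (ratio 1.23, 0.953 to 1.61).

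Peaks that were lower in total thymocytes than in DP sorted cells were also found. The Il2ra peak at -5516 bp gave 0.604 in total thymocytes and 1.25 in DP, 0.519 in DN, 0.302 in CD4 and 0.547 in CD8 sorted cells, and the ratio over DP sorted cells was 0.483 (0.326 to 0.741). The peak at -9145 bp from the start of Cd69, a receptor displayed after T cell receptor signals, gave 0.641 in total thymocytes and from 0.738 to 1.29 in the sorts, with a ratio over DP sorted cells of 0.496 (0.337 to 0.754). The peak at -6398 bp from the start of Cd3e, which encodes a signaling chain of the receptor, gave 0.2 against 0.732 in DP sorted cells, a ratio of 0.273 (0.158 to 0.498). At all 3 peaks total thymocytes were nearer to DN than to DP sorted cells, and at the Il2ra peak they were nearest to CD8 sorted cells. The Il2ra peak 10759 bp downstream gave 0.257 in total thymocytes, 0.639 in DN, 0.646 in DP, 1.17 in CD4 and 0.715 in CD8 sorted cells, so it was lower in total thymocytes than in every sort.

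Over whole lists of stage genes, total thymocytes were level with DP sorted cells at DP-stage genes and low at mature SP genes. The lists were chosen with earlier results of these data known and are read by counts and medians only. A gene took all peaks nearest to its start within 100 kb and needed 30 open peaks in the 2 groups compared, and a ratio of 1.5 or more, or of 1/1.5 or less, is called higher or lower. Against DN sorted cells, 7 of 15 DP-stage genes were higher and 0 lower, with a median ratio of 1.41, where 16.8% of the 12416 genes measured were higher and 22.1% lower and the median was 1.01. Against SP sorted cells 10 of 15 were higher and 0 lower, with a median of 1.67, beside 23.5% higher, 19.7% lower and a median of 1.06 over 12308 genes. Against DP sorted cells 1 of 15 was higher and 1 lower, with a median of 0.995, beside 23.7% higher, 14.7% lower and a median of 1.05 over 12035 genes. The summed DP-stage signal was 33 per 10000 open peaks in total thymocytes (31.4 to 38.3 over plate sets), 33.3 in DP, 23.4 in CD8, 19.2 in DN and 16.2 in CD4 sorted cells, and the value of DP sorted cells lay inside the range of the plate sets. Restricting genes to their distal peaks gave DP-stage medians of 1.89, 1.05 and 2.14 against DN, DP and SP sorted cells, with 9, 2 and 8 of 14 genes higher. Over all genes 23.5%, 28.1% and 30.4% were then higher and 28.1%, 15.9% and 26.6% lower.

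Among DP-stage genes, Cd8a had a signal of 3.71 in total thymocytes (3.04 to 4.29 over plate sets), 0.818 in DN, 3.06 in DP and 1.43 in SP sorted cells. Its ratios were 4.53 over DN (3.32 to 6.35), 1.21 over DP (0.954 to 1.56) and 2.59 over SP sorted cells (2.04 to 3.33). Cd8b1 followed the same order, at 3.82, 1.1, 3.4 and 1.59, with ratios of 3.48, 1.12 and 2.4. Dntt, which encodes the polymerase that adds bases at receptor junctions, gave 2.71, 1.52, 2.89 and 1.21, and Endou, an endonuclease gene active in DP cells, gave 2.92, 1.46, 2.8 and 1.09. Rmnd5a, a neighbor of Cd8a, gave 3.23 in total thymocytes and 1.92, 2.54 and 1.65 in DN, DP and SP sorted cells. The genes past the fold against DP sorted cells were Ly6d, which encodes a surface protein of thymocytes, at 0.663 against 0.302, and Cd1d1, which encodes a molecule that presents lipids, at 1.12 against 1.77. Arpp21 gave 3.22 in total thymocytes and 2.91, 3.75 and 2.09 in the sorts.

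DN-stage genes were not higher in total thymocytes than in DN sorted cells as a list. Of 12 genes, 1 was higher and 4 lower over DN sorted cells with a median of 0.809, 1 higher and 5 lower over DP with a median of 0.718, and 3 higher and 5 lower over SP sorted cells with a median of 0.713. Of all genes 16.8% were higher and 22.1% lower over DN, 23.7% and 14.7% over DP, and 23.5% and 19.7% over SP sorted cells. The summed signal was 10.4 in total thymocytes, 13.1 in DN, 13.4 in DP, 11 in CD4 and 12.7 in CD8 sorted cells. Erg, which encodes a factor of early progenitors, gave 0.619 in total thymocytes and 2.12, 1.55 and 1.05 in DN, DP and SP sorted cells. Bcl11a, another progenitor gene, gave 0.122 in total thymocytes and 0.599 in DN sorted cells. Lyl1, a basic helix-loop-helix factor of progenitors, was the exception, at 0.82 in total thymocytes and 0.479, 0.258 and 0.278 in DN, DP and SP sorted cells. Notch1, the receptor that starts T cell fate, gave 1.69 in total thymocytes and from 1.21 to 1.26 in the 3 sorted pools, whereas Notch3 gave 1.87 beside 2.1 in DN and 1.94 in DP sorted cells. Il2ra gave 1.69 in total thymocytes, 1.9 in DN, 2.71 in DP and 2.39 in SP sorted cells, and Cd44, an adhesion receptor of early progenitors and mature cells, gave 1.46, 1.72, 2.71 and 2.74. Il2ra and Cd44 varied widely over the plate sets, from 0.837 to 3.27 and from 0.193 to 1.95.

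Mature SP genes were low in total thymocytes against SP sorted cells. Of 12 genes, 10 were lower and 1 higher, with a median ratio of 0.511, where 19.7% of all genes were lower and 23.5% higher. Against DN and DP sorted cells the medians were 0.727 and 0.823. The summed signal was 9.49 in total thymocytes (6.93 to 10.5 over plate sets), 11.1 in DP, 13.8 in DN, 19.9 in CD8 and 21.5 in CD4 sorted cells, so every plate set was below every sort. Il7r, which encodes the interleukin-7 receptor alpha chain, gave 0.25 in total thymocytes and 1.08, 0.474 and 2.72 in DN, DP and SP sorted cells, a ratio over SP sorted cells of 0.0919 (0.0688 to 0.122). S1pr1, which encodes the receptor for thymic exit, gave 0.685 against 3.8 in SP sorted cells, a ratio of 0.18 (0.148 to 0.22). Ccr7, a chemokine receptor gene of cells moving to the medulla, gave 2.27 against 3.98, and Klf2, the regulator of S1pr1, gave 1.44 against 2.33. Itgb7, an integrin gene, was the 1 gene past the fold in the other direction, at 0.904 against 0.557, and without the series of label numbers that starts at 31000 there were 0 such genes. Cd52 gave 0.366 against 0.338, a ratio of 1.08 (0.648 to 1.92).

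**Figure D2:**
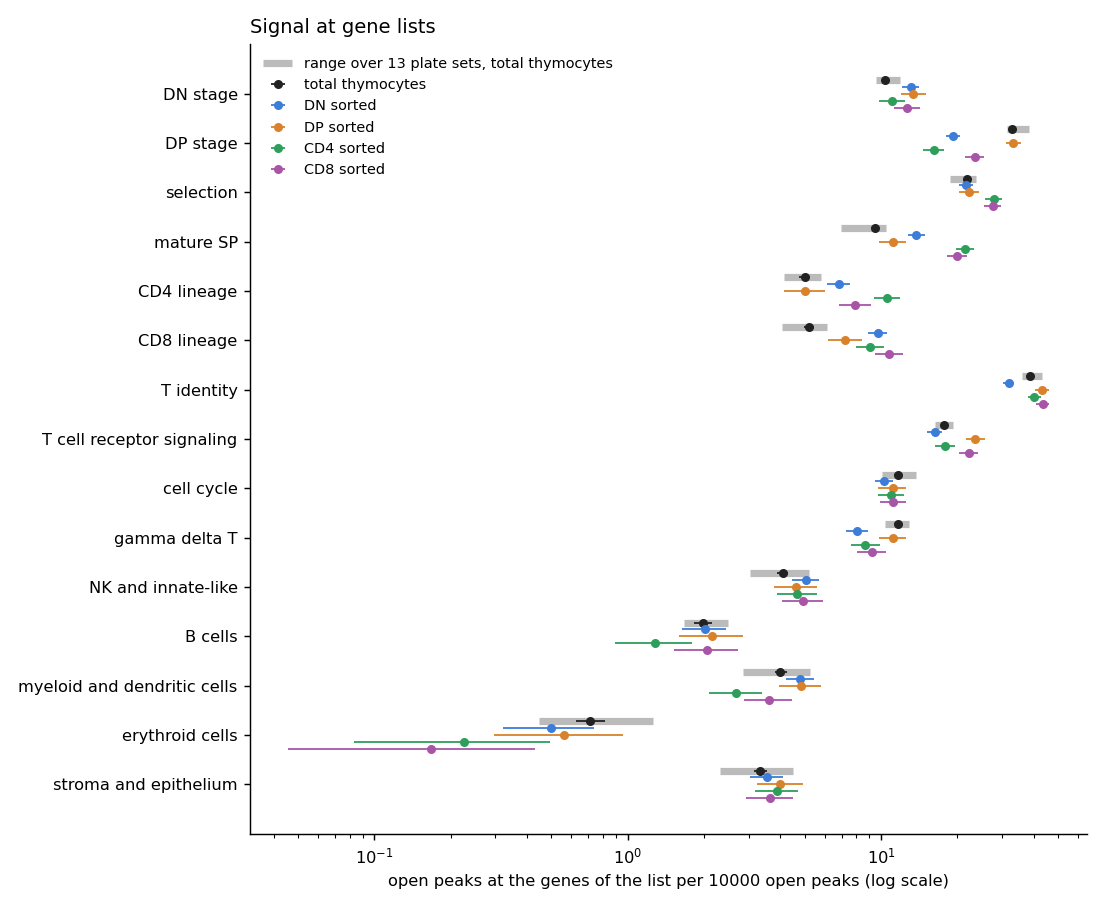
Open peaks at the genes of each list per 10000 open peaks, on a log scale, for total thymocytes and each sort. Points are pooled values with exact 95% intervals and the gray bars span the 13 plate sets of total thymocytes; DP-stage signal of total thymocytes lies at that of DP sorted cells and mature SP signal lies below all sorts.

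Selection genes were lower than in SP sorted cells for most members, and against DN and DP sorted cells members went both ways around medians near 1. Of 12 genes, 7 were lower and 1 higher over SP sorted cells, where 19.7% of all genes were lower and 23.5% higher, with a median of 0.637, and the medians over DN and DP sorted cells were 1.07 and 0.981. Over DP sorted cells Egr1 (ratio 1.62) and Id3 (1.56) were higher and Itm2a (0.545), Gata3 (0.616) and Cd69 (0.661) lower. Over DN sorted cells Id3 (1.62) was higher and Itm2a (0.336) and Egr3 (0.363) lower. Of all genes 23.7% were higher and 14.7% lower over DP, and 16.8% and 22.1% over DN sorted cells. Cd28, a costimulatory receptor gene, gave 3.07 in total thymocytes and 2.97, 3.23 and 5.47 in DN, DP and SP sorted cells. Tox, needed for the CD4 lineage, gave 1.18 against 2.17 in SP sorted cells, and Itm2a, a gene induced on selection, gave 0.141 against 0.557. Among genes of early receptor signals the order differed from gene to gene. Egr3 gave 0.66 in total thymocytes beside 1.82 in DN, 0.861 in DP and 1.51 in SP sorted cells, and Cd69 gave 1.96 beside 2.77, 2.97 and 3.08. Egr2 gave 1.64 beside 1.36, 1.55 and 1.55. Nr4a1 gave 2.89 in total thymocytes and from 2.49 to 2.86 in the sorted pools, and Egr1 gave 2.85 beside 2.1, 1.77 and 2.19. Id3, which encodes an inhibitor of E proteins, was higher than in all 3 pools at 2.55 beside 1.58, 1.64 and 1.29, with ratios of 1.62 (1.28 to 2.06), 1.56 (1.13 to 2.22) and 1.97 (1.53 to 2.58).

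Lineage genes of the mature cells were low against SP sorted cells for most members. Of 6 CD4-lineage genes 4 were lower and 1 higher over SP sorted cells, with a median of 0.422, and of 6 CD8-lineage genes 4 were lower and 0 higher, with a median of 0.47, beside 19.7% of all genes lower and 23.5% higher. Against DN sorted cells, 5 of the 6 CD8-lineage genes were lower, where 22.1% of all genes were. Ctla4, an inhibitory receptor gene, gave 1.03 in total thymocytes, 2.57 in DN, 1.25 in DP and 2.98 in SP sorted cells. Ifngr2, an interferon gamma receptor gene, gave 1.06 beside 2.83, 2.67 and 3.9, and was below every sorted pool. Runx3, the regulator of CD8 fate, gave 2.59 beside 3.95 in DN, 2.24 in DP and 3.28 in SP sorted cells, a ratio over SP sorted cells of 0.79 that was not past the fold, and Zbtb7b, the regulator of CD4 fate, gave 0.585 beside 0.499 in DN, 0.172 in DP and 0.716 in SP sorted cells.

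Of the T identity genes 3 of 10 were higher and 1 lower over DN sorted cells, with a median of 1.16, and 1 was higher over DP and over SP sorted cells. Over all genes 16.8% were higher and 22.1% lower over DN, 23.7% higher over DP and 23.5% higher over SP sorted cells, so 1 of 10 is below the share of all genes. Tcf7 gave 6.69 in total thymocytes and 3.41, 5.82 and 5.37 in DN, DP and SP sorted cells. Satb1, an organizer of thymocyte chromatin, gave 4.61 beside 3.01, 4.78 and 6.34. Tcf3, which encodes the E proteins E2A, gave 1.26 beside 0.719, 0.689 and 0.736, and was the gene higher over all 3 pools. Of 10 receptor signaling genes 3 were lower than in DP sorted cells, where 14.7% of all genes were, with a median of 0.755, among them Cd247 at 2.62 against 4.01 and Cd3e at 1.11 against 1.77. Cd247 and Cd3e encode signaling chains of the receptor complex. Cell cycle genes went both ways around medians of 1.06, 1.04 and 0.848 over DN, DP and SP sorted cells, and Mki67 gave 1.91 beside 1.64, 1.42 and 1.49. Over DN sorted cells E2f1 (ratio 1.65) and Ccnb1 (1.64) were higher and Ccnb2 (0.582) and Cdk1 (0.621) lower. Over DP sorted cells Mcm5 (1.51) was higher and Top2a (0.659) lower, and over SP sorted cells E2f1 (1.54) was higher.

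Lists of other cell types that a total suspension could hold were examined as well. Over DN sorted cells 0 of 5 NK, 0 of 4 B cell, 0 of 7 myeloid and 0 of 6 stromal genes were higher, and over DP sorted cells 0 of 5, 1 of 4, 2 of 6 and 0 of 5. Over all genes 16.8% and 23.7% were higher, so these counts of higher genes are read as no result about the lists. Genes lower over DN sorted cells were Zbtb16 and Gzma (NK), Pax5 (B cell), Csf1r, H2-Aa and Flt3 (myeloid), and Foxn1, Krt8, Col1a1 and Pdgfra (stromal). Over DP sorted cells Eomes, Flt3, Krt8 and Pdgfra were lower. Of all genes 22.1% were lower over DN and 14.7% over DP sorted cells. Summed signal in total thymocytes was 4.01 for myeloid and dendritic genes, where the sorts ranged from 2.68 to 4.82. It was 1.99 for B cell genes (1.28 to 2.15 in the sorts), 4.09 for NK and innate-like genes (4.61 to 5.05) and 3.34 for genes of stroma and epithelium (3.55 to 4.01). The erythroid list gave 0.713 (0.624 to 0.812, and 0.447 to 1.26 over plate sets) against 0.168 to 0.56 in the sorts, with intervals that overlapped those of DN (0.323 to 0.737) and DP sorted cells (0.298 to 0.958). It rested mainly on Klf1, which encodes an erythroid factor and gave 0.657 in total thymocytes and 0.479, 0.56 and 0.159 in DN, DP and SP sorted cells. Gata1, its partner, had 14 open peaks over all total thymocytes. Counted over all peaks nearest to a gene within 100 kb, the markers of these lists were not at 0 as a rule. Klrd1 had 0 open peaks over all total thymocytes, Cd79a 11 and Cd14 16, whereas the NK gene Klrb1c had 767, the B cell genes Ebf1 and Cd79b 356 and 142, and the myeloid genes Itgam and Irf8 424 and 397. These counts need not come from the promoter. Of the 1013 total thymocytes nearest to DP by distal peaks, described below, the promoter was open in 7 for Klrb1c and 10 for Cd79b. It was open in 72 for Ebf1 and 116 for Irf8. Over SP sorted cells Ebf1 had a ratio of 3.29 (2.03 to 5.72) and Itgam of 3.18 (2.05 to 5.18), while over DP sorted cells they had 0.718 (0.509 to 1.04) and 0.716 (0.523 to 1). Gamma delta T genes gave 11.7 beside 8.02 to 11.1, a list that shares Tcf7 with the T identity list, while Cd163l1, the most restricted of its genes, gave 0.106 beside 0.499 in DN sorted cells.

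Each total thymocyte was then set against the pooled profiles of the sorts, and DP was the nearest for most. A cell went to the sort under whose profile its open peaks were most likely. Of 1075 total thymocytes 988 were nearest to DP (91.9%, 90.1 to 93.5), 84 to DN (7.81%, 6.28 to 9.58) and 3 to SP (0.279%). Over plate sets the DP share was 87.5% to 96.7%, so DP was the nearest profile for most cells of each set. When every sorted cell was set against profiles that left it out, the call matched the sort for 97.4% of DP, 92% of DN, 92.7% of CD4 and 73.6% of CD8 sorted cells. The assignment turned on which peaks were read. With distal peaks alone 94.2% of total thymocytes were nearest to DP, 3.16% to DN and 2.6% to SP, whereas with promoter peaks alone 86.8% were nearest to DN and 13% to DP. Promoter peaks recovered 92.6% of DN, 88.8% of DP, 81.2% of CD4 and 75.8% of CD8 sorted cells, and distal peaks 88%, 97.4%, 92.7% and 72.5%. After thinning to 500 open peaks 76.8% of total thymocytes were nearest to DP and 23% to DN, and 92% of DN and 92.1% of DP but 23.1% of CD8 sorted cells were recovered. It turned on the sorted cells as well. With profiles from the series of label numbers that starts at 4000 the shares were 94.6% DP, 0.651% DN and 4.74% SP. These profiles recovered 14 of 30 DN sorted cells of that series, with 10 of the 30 called CD8 and 6 called DP, while 96.8% of DP, 100% of CD4 and 98.7% of CD8 sorted cells were recovered. With profiles from the series that starts at 31000 the shares were 29.6% DP, 34% DN and 36.4% SP. In the latter series, whose sorted cells had medians of 719 to 881 open peaks, the call matched 0 of 23 DN, 0 of 14 CD8, 16 of 22 DP and 41 of 41 CD4 sorted cells, so the DN and CD8 profiles of that series did not recover their own sorts. Without that series, a setting added after seeing the data, 90.1% of total thymocytes were nearest to DP, 9.77% to DN and 0.093% to SP, and 98.9% of DP, 96.1% of DN, 100% of CD4 and 84.4% of CD8 sorted cells were recovered.

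**Figure D3:**
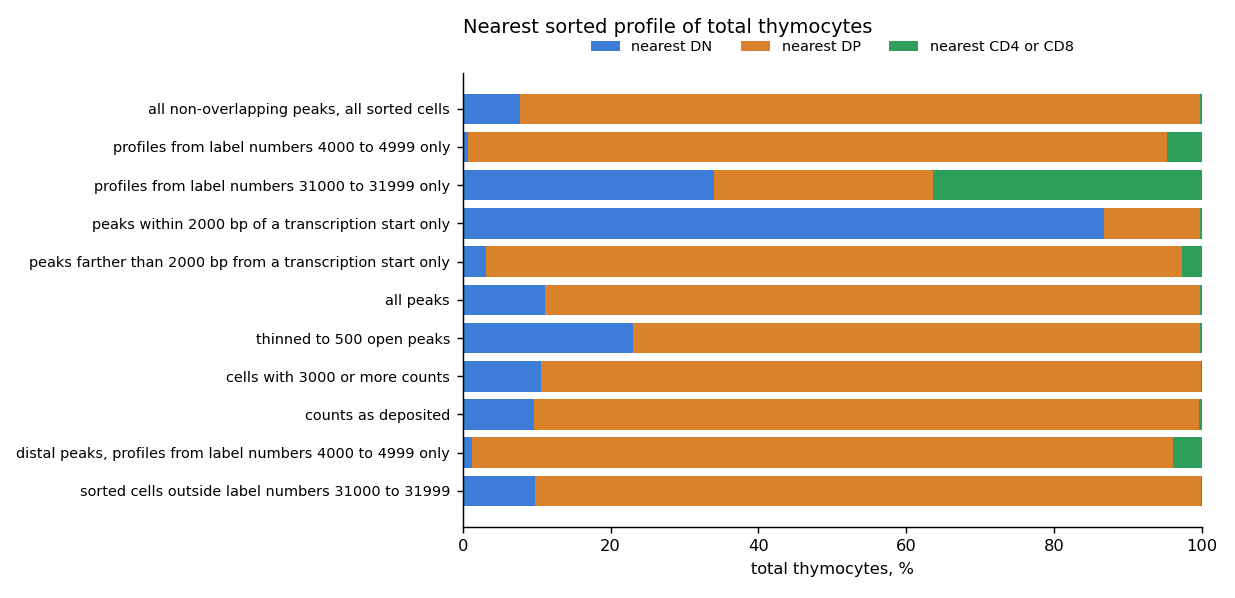
Share of the 1075 total thymocytes nearest to each sorted profile, in percent, under each choice of peaks, profiles and depth. DP is the nearest profile for most cells in all settings shown except promoter peaks only and profiles from the label numbers that start at 31000.

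A mixture of the 4 sorted profiles gave a different split from the calls of single cells. The mixture that best matched the pooled total thymocytes was 48.3% DN, 44.9% DP, 3.71% CD4 and 3.1% CD8 over all peaks. Over distal peaks it was 64.3% DP, 27.4% DN and 8.3% CD8, and over promoter peaks 58.4% DN and 26.4% DP. Across distal peaks the pool correlated with DP at Pearson's r = 0.853 and with DN at 0.744, and across all peaks at 0.878 and 0.877. These are correlations across peaks, which are not replicates. The pool of total thymocytes was thus nearest to DP sorted cells away from gene starts, and no nearer to DP than to DN over all peaks.

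Stage scores put single total thymocytes between the DN and DP sorts. A score was the share of a cell's open peaks in the 1000 peaks with the largest excess in 1 sort, picked in sorted cells only. The DP score of total thymocytes had a median of 9.21% (5.35 to 12.3, SD 1.07 over cells), beside 12.4% in DP, 6.37% in DN, 5.95% in CD4 and 6.83% in CD8 sorted cells. Of 1075 cells 1063 (98.9%) were above the DN median and 0 above the DP median, with an upper limit of 0.343%. The DN score had a median of 4.21% in total thymocytes, 5.86% in DN and 2.99% in DP sorted cells, and 0 cells were above the DN median and 1068 above the DP median. The SP score had a median of 3.45% (1.43 to 6.59) against 8.52% in CD4 and 7.23% in CD8 sorted cells, and 0 cells reached the SP median. The medians of total thymocytes thus lay between those of DN and DP sorted cells on both scores, and 5% to 95% of cells had DP scores from 7.15% to 10.7%, although the whole range reached from below the DN to near the DP median. The peaks were picked in the same sorted cells whose medians are given, and with peaks picked in odd and medians taken from even label numbers 5.21% of total thymocytes were above the DP median of the DP score, which was then 10.3%, and 40.7% above the DN median of the DN score. With distal peaks the DP medians were 16.9% in total thymocytes (5.22 to 23.8, SD 2.88), 20.7% in DP and 8.65% in DN sorted cells, so the spread over cells was wider. Plate set medians of the DP score ranged from 8.59% to 9.82%. Over the 1075 cells the DP score was correlated with the log10 total at r = -0.423 and with the promoter share at r = 0.303, and the part of depth in the spread was not tested.

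**Figure D4:**
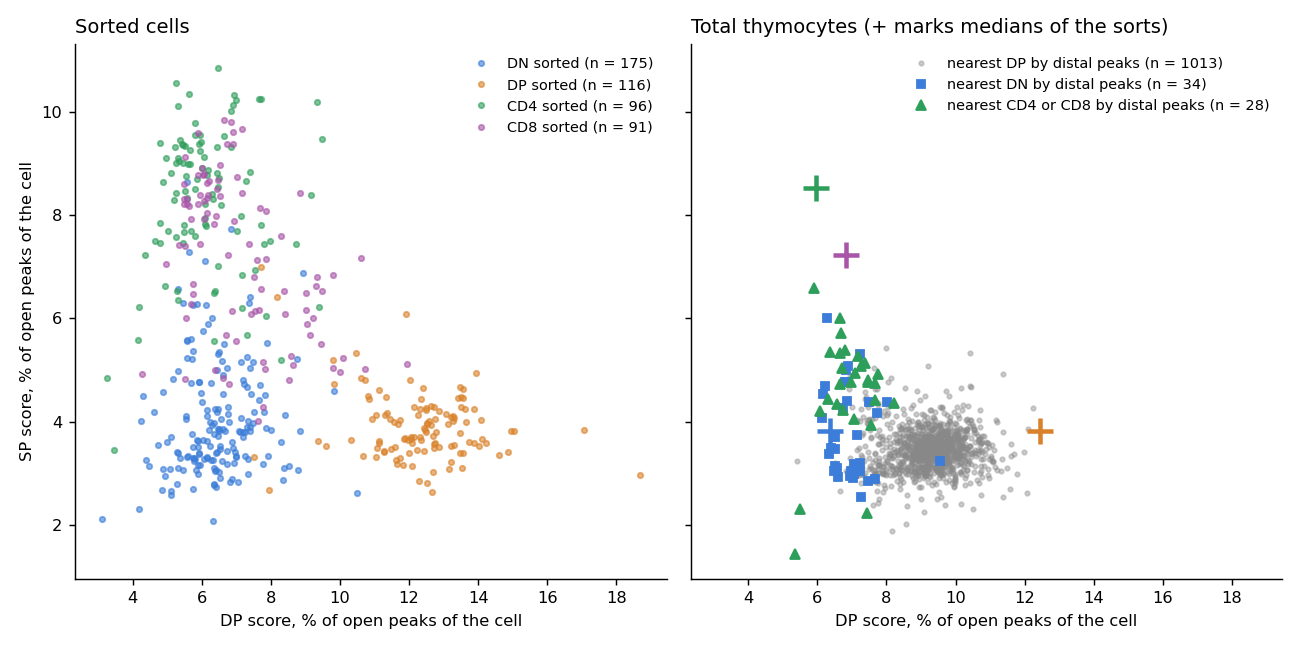
DP score against SP score of single cells, each as a percent of the open peaks of the cell, for sorted cells in the left panel and total thymocytes in the right panel. Colors in the right panel give the nearest profile by distal peaks and crosses the medians of the sorts; the median DP score of total thymocytes, 9.21%, lies between the DN and DP medians, and their median SP score is 3.45%, beside 3.81% in both, an order that turned with other choices of peaks.

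The 28 total thymocytes nearest to CD4 or CD8 by distal peaks were examined at promoter peaks, which the call had not used. They were nearest to CD4 in 6 cases and to CD8 in 22, and came from 20 plates and 12 of the 13 plate sets, with at most 3 in a plate. Their median of open peaks was 3212 and their median promoter share 62.9%, beside 2959 and 62.5% in the 1013 cells nearest to DP, so depth and promoter share were alike. Per 10000 open promoter peaks, mature SP genes gave 10.5 in the 28 cells, 5.4 in cells nearest to DP and 9.63 in SP sorted cells, a ratio between the first 2 of 1.94 (1.46 to 2.54). CD4-lineage genes gave 3.87, 1.96 and 4.55, a ratio of 1.97 (1.2 to 3.05), and CD8-lineage genes 2.95, 1.81 and 3.99, a ratio of 1.62 (0.918 to 2.68). DP-stage genes went the other way, at 14.7, 23.3 and 13.5, a ratio of 0.631 (0.499 to 0.787). At each of these 4 lists the 28 cells lay nearer in value to SP sorted cells than the cells nearest to DP did, although the interval of the CD8-lineage ratio held 1. Other lists went the other way, with T identity genes at 16.8 in the 28 cells, 14.8 in cells nearest to DP and 10.4 in SP sorted cells, and receptor signaling genes at 13.4, 14.7 and 16.3. NK genes gave 0.552, 0.741 and 1.29, and erythroid genes 1.29, 1.15 and 0.403, and the intervals of the ratios at these other lists held 1. Selection and DN-stage genes gave ratios of 1.14 (0.899 to 1.43) and 0.886 (0.538 to 1.38), whose intervals held 1.

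Of 11 mature SP promoters 9 were open in a larger share of the 28 cells, 4 of them with an interval that lay above the share in cells nearest to DP. Over all 12104 genes with a promoter peak 49.4% had a larger share in the 28 cells and 3.07% an interval above, and 50.2% had a smaller share and 0.777% an interval below. Larger shares were found at 8 of 11 selection, 6 of 7 CD4-lineage and 6 of 10 T identity promoters too. The Ccr7 promoter, printed above, was open in 12 of 28 cells, 42.9% (24.5 to 62.8), in 13.9% of cells nearest to DP and in 24.1% of SP sorted cells. It was also open in 24.6% of DN sorted cells, so it did not set SP apart from DN sorted cells. In the 34 cells nearest to DN it was open in 20.6% (8.7 to 37.9). The Il7r promoter was open in 4 of 28, 14.3% (4.03 to 32.7), and in 4 of 1013 cells nearest to DP, 0.395%, beside 10.2% of SP sorted cells. The S1pr1 promoter was open in 17.9% against 2.57%, and the Klf2 promoter in 39.3% against 19.8%. Lef1, which encodes a partner of TCF1, had 46.4% against 16%, and Nkg7, a granule protein gene of cytotoxic cells, 10.7% against 0.0987%. SP sorted cells had 15% and 2.67%, so at Lef1 they were level with cells nearest to DP and not with the 28 cells. Il7r, Nkg7 and Klf2 were not particular to the 28 cells, since they were also open in 8.82%, 8.82% and 44.1% of the 34 cells nearest to DN. Egr1, a gene of early receptor signals, was open in 71.4% (51.3 to 86.8) against 51.7%, an interval that held the latter share, and in 27.3% of SP sorted cells, which lay below it. Among the DP-stage promoters, 9 of 13 were open in a smaller share of the 28 cells, 4 with an interval below the share in cells nearest to DP. Cd8b1 was open in 25% against 48.9%, Endou in 14.3% against 43.4% and Arpp21 in 17.9% against 38%. The Rag1 promoter was open in 0 of 28, with an upper limit of 12.3%, and in 31.6% of cells nearest to DP. The Rag2 promoter was open in 14.3% against 24.4% and the Cd8a start in 17.9% against 17.1%, differences within the intervals. Lyz2, a myeloid gene, was open in 3 of 28 cells, 10.7%, against 0.888%, and the whole myeloid list gave a ratio of 1.33 (0.601 to 2.57). With profiles from the series that starts at 4000, 42 cells were nearest to SP, 24 of them among the 28, and the ratios were 2 (1.59 to 2.47) at mature SP and 0.624 (0.518 to 0.746) at DP-stage promoters. With these profiles and distal peaks 7 of 30 DN sorted cells of that series were called CD8, 1 CD4 and 17 DN, and how many of the 42 cells are like such DN cells was not tested. The call has a boundary, and 1 of the 28 cells and 10 others lay within 10 log units of it.

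The 34 total thymocytes nearest to DN by distal peaks came from 24 plates and all 13 plate sets. They had a median of 3776.5 open peaks, more than the 2959 of cells nearest to DP. At promoters they were lower at DP-stage genes, with 15.6 against 23.3 per 10000 open promoter peaks, a ratio of 0.669 (0.554 to 0.801), while DN sorted cells gave 13.7. Rag2 was open in 8.82% against 24.4%, Cd8a in 2.94% against 17.1% and Cd8b1 in 29.4% against 48.9%. At DN-stage genes they gave 4.86 against 4.16, a ratio of 1.17 (0.822 to 1.62), so a higher DN-stage signal was not detectable. At 10 of 11 DN-stage promoters the share was larger, but these cells were deeper and 68.4% of all 12104 promoters had a larger share in them, 9.67% with an interval above. Larger shares were also found at 9 of 10 cell cycle and 8 of 10 T identity promoters, although per open promoter peak the ratios of these lists were 1.02 (0.836 to 1.23) and 0.873 (0.709 to 1.07). Receptor signaling genes gave 11.1 against 14.7, a ratio of 0.759 (0.606 to 0.94). Mature SP genes gave 7.17 against 5.4, a ratio of 1.33 (0.996 to 1.74) whose interval held 1, while DN sorted cells gave 7.43. Of 11 mature SP promoters 8 were open in a larger share of the 34 cells. Promoters open in a larger share included Nr4a1, at 44.1% against 21.5%, Klf2, at 44.1% against 19.8%, and Mcm5, which encodes a subunit of the replicative helicase, at 38.2% against 19.8%. Il7r and Nkg7 were open in 8.82% each against 0.395% and 0.0987%, and Cst7, which encodes an inhibitor of proteases in cytotoxic cells, in 17.6% against 2.67%, each with an interval above. Spi1 and Flt3, genes of early progenitors and of myeloid cells, were open in 17.6% against 6.02% and 11.8% against 1.38%, and the myeloid list as a whole gave a ratio of 1.65 (0.925 to 2.73), whose part in the call was not tested. Of 13 DP-stage promoters 7 were open in a smaller share of these cells, 4 with an interval below the share in cells nearest to DP, where 31.2% of all promoters had a smaller share and 0.256% an interval below. Of the 11 DN-stage promoters 0 had an interval above it.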

How the data were processed

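Open chromatin was measured by scATAC-seq. Per its methods, the study trimmed adapters, mapped reads with Bowtie2, removed duplicates with Picard and called peaks with MACS2 on merged cells; the build of this assay is not given in the sources used here and was taken as GRCm38, which the methods name for the RNA-seq. The authors deposited raw counts per peak and cell, 1 column per cell. Of the columns, 362 with no plate number or group were not used. Counts were limited to 1 per cell and peak, and peaks were assigned to the nearest transcription start (GENCODE vM21).

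Cells were set against pooled sorted profiles by multinomial likelihood with a prior of 0.5 per peak, leaving a sorted cell out of its own profile. Non-negative least squares gave the mixture. Clusters came from TF-IDF, singular value decomposition and Leiden (20 components, resolution 0.6, components that track depth left out). Steps were tested on simulated data. Python 3.11.15, numpy 2.4.6, scipy 1.17.1, pandas 2.3.3, scikit-learn 1.9.0, scanpy 1.11.5 and leidenalg 0.10.2 were used. No doublet caller was run. Overlapping peaks with centers under 250 bp apart shared a median of 85.7% of the cells of the smaller peak, those up to 4000 bp apart 13.4%, so the counted interval may be narrower than the peak.

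The members and lists were chosen with earlier results of these data known. Named genes were the 3 markers, up to 4 per list with the most open peaks, the 5 highest and 5 lowest ratios per comparison and 10 leading genes per cluster; further genes of the lists were named after their values were seen. Alternatives covered peaks, profiles, depth, thinning, count minimums and each plate set left out. Some genes are not reported here.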

Additional observations from a re-analysis of the deposited data

How the results depend on the processing

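Each group is 1 sample, so no result has a test and only values are compared. No paired analysis was possible because no test was run and the groups share no replicate numbers. The 2 settings meant for cells with no plate number were not run.

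The share nearest to DP, 91.9%, was 94.6% with profiles from the label-number series that starts at 4000, 29.6% from that at 31000, 13% with promoter peaks, 94.2% with distal peaks, 88.7% over all overlapping peaks, 76.8% after thinning, 89.3% in cells of 3000 counts or more, 89.9% with counts as deposited, 94.9% with distal peaks and the 4000 series together, 44.9% as a mixture and 90.1% without the 31000 series. The DN share, 7.81%, was in the same order 0.651%, 34%, 86.8%, 3.16%, 11.1%, 23%, 10.6%, 9.67%, 1.21%, 48.3% and 9.77%. The SP share, 0.279%, was 4.74%, 36.4%, 2.6% with distal peaks, 3.91% with both and 6.81% as a mixture. The cause was not tested.

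Of the markers, Rag1 by nearest start, 0.279%, was 1.3% without thinning and 0.873% at 1000 open peaks, and by its own start 5.12% and 30.6%. Cd8a, 18%, was 69.9%, 34.7% and, by its own start, 3.07%. Il2ra, 8.84%, was 39.3%, 16.2% and, by its own start, 0.465% thinned and 2.33% unthinned.

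The numbers of genes past the fold moved by over 1.5 times under 4 settings, in which the number of genes tested differed as well. They are given here as percents of genes tested, which moved less in most cases. With no count minimum 20.7% of 15787 genes were higher and 27.7% lower over DN, against 16.8% and 22.1% of 12416, 33.1% of 15728 were higher over DP, against 23.7% of 12035, and 28.8% of 15782 were higher over SP, against 23.5% of 12308. With a minimum of 100, 13.3% of 9348, 11.1% of 8958 and 14.2% of 9313 were lower over DN, DP and SP. With sorted cells of the 4000 series 27.3% of 12009 were higher over DN, and with distal peaks 28.1% of 6272 were higher and 15.9% lower over DP, fewer genes (1763 and 1000, against 2851 and 1766) but larger percents.

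The share above the DN median of the DP score was 97% with 300 peaks per score and 97.3% with odd and even label numbers. The share above the DP median was 0.744% with 300 peaks, 3.44% with distal peaks and 5.21% with odd and even numbers. On the DN score the share above the DN median was 0.558% with 300 peaks, 46.8% with the 4000 series and 40.7% with odd and even numbers, and that above the DP median was 99.9% with 3000 peaks, 83.4%, 78.5% with distal peaks and 95.8%. The order of SP scores turned: the median of total thymocytes was 3.54% against 3.14% in DP sorted cells with the 4000 series, and 9.68% against 9.53% in DN sorted cells with 3000 peaks.

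Clusters numbered 5 after thinning, and 16.9% of cells were then in the main plate set of their cluster, against 82.8% at resolution 0.3, 84.2% with 10 components and 81.5% with peaks open in at least 54 cells.

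Of 941 list medians under alternatives, 924 were within 1.5 times, 15 moved further and 2 were reversed: gamma delta T genes over DN were at 2.08 with promoter peaks only, and stroma and epithelium over DN at 1.15 with a minimum of 100. Leaving out any 1 plate set kept 585 of 585 list medians within 1.5 times, and 117 of 117 shares and counts within 1.5 times or their interval.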

Other observations

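In unsupervised clustering of the total thymocytes there were 11 clusters of 23 to 155 cells, and 88% of cells lay in the main plate set of their cluster, where the largest plate set held 14.6% of cells. After thinning to 500 open peaks 16.9% did, in 5 clusters. The plate sets were themselves joined by open peaks shared between these cells, so clusters and sets are not independent of each other. A cluster of 23 cells was spread over 12 plates and 8 plate sets, with 10 of its cells in 1 set. Its genes are described without a test, since the cells were clustered on them, and it is given no name. Its median DP score was 7.55%, beside 8.81% to 9.65% in the other clusters, and its DP-stage signal was 20.4 per 10000 open peaks, beside 31.1 to 35.7. Its leading genes by fold were Chst2 (7.17-fold, 4.03 to 12), Ampd3, Gbp9, Hs3st3b1, Retreg1, Rpusd2, Tmsb10, Tut4, Cox10 and Exosc10. Chst2 was also a leading gene of another cluster (2.52-fold), of which 84.7% lay in the same plate set. The Rag1 promoter was open in 0 of its 23 cells and in 31.3% of the rest, Ccr7 in 47.8% against 14.2%, the Cd69 start in 26.1% against 7.22% and the Cd3d start in 73.9% against 33.7%, whereas the Cd3g start was open in 26.1% against 35.5%, the Cd3e start in 17.4% against 24.1% and the Runx3 start in 0 against 7.98%. It held 8 of the 28 cells nearest to SP by distal peaks and 2 of the 34 nearest to DN, while over all peaks 12 of its 23 cells were nearest to DN. With other settings its cells were part of larger clusters. All 23 lay within a cluster of 122 cells at resolution 0.3 and of 48 at resolution 1, 10 of 23 within 142 cells with 10 components, 11 of 23 within 322 after thinning, and 13 of 23 within 119 with peaks open in 54 or more cells.

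Outside the lists, Col19a1, a collagen gene, was among the 5 lowest genes of total thymocytes against each sort, with 0.122 open peaks per 10000 beside 2.16 in DN, 3.14 in DP and 2.66 in SP sorted cells. Myo3a, a myosin gene, gave 0.288 beside 2.93, 4.44 and 3.4. The Col19a1 values rest on 2 peaks and those of Myo3a on 1, and a cause of the difference was not tested. The other lowest genes were Il9, Cryab, Gm5617 and Mroh2b over DN, Gm10097, Rbbp9 and Wif1 over DP, and Pcsk1n, Alb, Tmem30c and Gm5617 over SP sorted cells. Among genes with at least 1 open peak in the sort, the highest ratios were those of Rims2, Gpr162, Rbms3, Mybpc2 and Fst over DN, Tmed2, Foxk2, Mfsd5, Ehmt1 and Ube2o over DP, and Rnf227, Kctd2, Tex33, Orm2 and Tchp over SP sorted cells. Each gene named over DP and over SP had 1 open peak in that sort. Genes with 0 there have no ratio, such as Rims2 over DP sorted cells, with 90 open peaks in total thymocytes. Rims2 was 14.1 times its value in DN sorted cells (2.47 to 563, from 1 open peak there) and Gpr162 12.8 times (4.94 to 47.2).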
